A study of Mus musculus with 20 samples.

Results

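The Hedgehog genes described here are 8 genes of the pathway through which granulosa cells of the follicle signal to the theca layer around it. The ligands are Dhh (desert hedgehog) and Ihh (Indian hedgehog). Ptch1, Hhip and Smo are membrane proteins that receive, hold back and pass on the signal, and Gli1, Gli2 and Gli3 are its transcription factors. They were taken by name, all 8 were found in every library among the 23457 genes counted, and all 8 were among the 16099 genes with enough reads to test. RNA was measured by sequencing of polyadenylated RNA in whole ovaries of 20 female mice, 5 a group, in a cross of genotype and age. The groups were dwarf (df/df) mice of the Ames dwarf strain at 22 months and at 6 months, and normal (N/df) mice at 22 months and at 6 months. Ames dwarf (df/df) mice lack pituitary growth hormone, prolactin and thyrotropin, and the normal mice are carriers of the same df allele.

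In the mouse ovary, granulosa cells of growing follicles make Dhh and Ihh, and factors from the oocyte, Gdf9 among them, are known to raise both. The ligands bind Ptch1 on neighbouring stromal and theca precursor cells, which frees Smo to act and turns Gli2 and Gli3 from repressors towards activators. Gli1, Ptch1 and Hhip are themselves targets of the pathway and are commonly read as its output, with Ptch1 and Hhip feeding back to limit it. In a whole ovary, a gene's level changes in the same way with fewer cells of a type and with less RNA per cell, and these cannot be told apart here.

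Totals over genes ranged from 5399377 to 13448164 reads in dwarf mice at 22 months, 14224520 to 36068284 in dwarf mice at 6 months, 5186090 to 20266823 in normal mice at 22 months and 1365640 to 22429386 in normal mice at 6 months. Levels are given as CPM, the usual scaling of a gene's count to its library's total over genes. Markers of granulosa cells, theca and oocytes were detected in each group. In normal 6-month replicate 2 the 9 endocrine theca markers summed to 140.6 CPM and the 14 granulosa markers to 287 CPM, against group medians of 11365 and 4822 CPM, while the 10 markers of oviduct secretory cells summed to 6718 CPM. Normal 6-month replicate 3 had the fewest reads of all, and the 8 markers of B cells and plasma cells summed to 1258 CPM in normal 22-month replicate 3, against a group median of 124 CPM. These 3 libraries are in doubt, and the results that rest on them are also given without them. Dwarf 22-month replicates 1 and 4 were the most alike pair of one group, at 2.46 as chi-square over its degrees of freedom, in 14944 genes. The next pair, replicates 1 and 3 of that group, stood at 12.2. Replicates 1 and 4 still differed by more than sampling noise, but that does not show that they came from 2 animals. They were counted as 2 mice because the labels name 20 mice, and the spread between libraries is read as between animals on that ground.

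Gli1, the pathway's own target and activator, was called in 2 comparisons, more than any other member. It was 2.51-fold higher in dwarf than in normal ovaries at 22 months, and in normal ovaries it was lower at 22 than at 6 months, as was the ligand Dhh. Of the 8 members, 1 was called higher in dwarf mice at 22 months, where 3.81% of all tested genes were called in either direction and 1.96% higher. At 6 months 0 of 8 were called between genotypes, against 4.57% of all genes. With age, 2 of 8 were called lower in normal mice, where 6.75% of genes were called and 4.14% lower, and 0 of 8 in dwarf mice, where 11.2% were called. At an unadjusted p under 0.05, 3 members passed at 6 months and 1 with age in dwarf mice, against 18.4% and 28.1% of all genes, and DESeq2 called 0 members in both (8.84% and 17.2% of all genes) and limma voom 1 and 5 (11.6% and 46.7%). With the 3 doubtful libraries left out, 5 members were called in dwarf against normal mice at 22 months (10.8% of all genes) and 0 at 6 months (12.2%), and with age 3 in dwarf mice (28.7%) and 6 in normal mice (29.6%). A gene was called at an adjusted p under 0.05 in edgeR's quasi-likelihood test, with Benjamini-Hochberg adjustment over all 16099 genes, which applies to each adjusted p below.

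**Figure D1:**
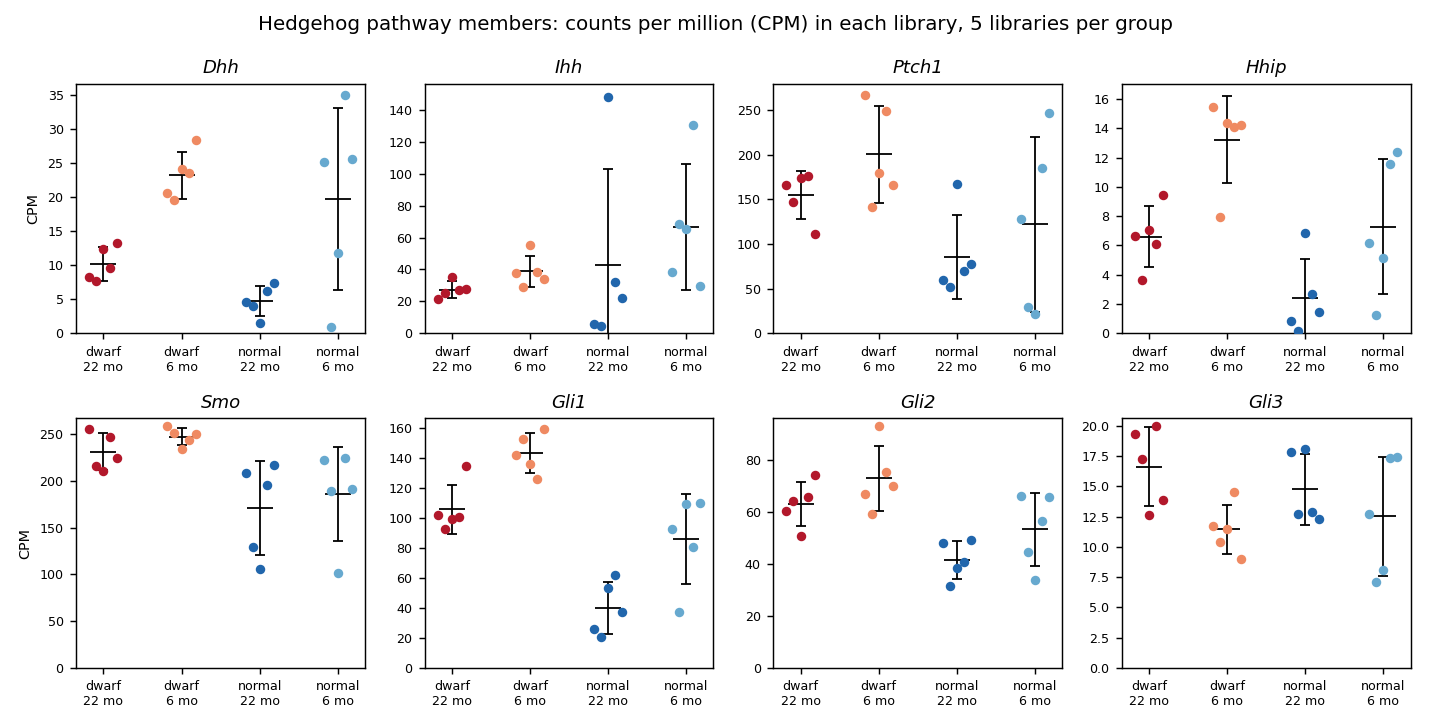
CPM of the 8 members in each of the 20 libraries (points), with the mean and SD of each group (bars, cut at 0 on the axis) for dwarf mice at 22 and 6 months and normal mice at 22 and 6 months. The 5 dwarf libraries at 22 months lie between 92.6 and 134 CPM for Gli1 and all 5 normal libraries of that age lie below them, at 20.9 to 62.1 CPM.

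By sign alone, most members went the same way in each comparison, most of them without passing the test. At 22 months 7 of 8 were higher in dwarf ovaries by fitted log2 fold change, with a median of 0.63 against -0.04 over all tested genes, and at 6 months 6 of 8 were higher, with a median of 0.41 against -0.04. With age 7 of 8 were lower in dwarf mice, with a median of -0.49 against 0.00 over all genes, and 7 of 8 in normal mice, with a median of -0.57 against -0.02. Some of the changes counted were smaller than their SE, such as the genotype difference of Gli3 at 22 months (0.07 ± 0.23) and of Dhh at 6 months (0.21 ± 0.53). Signs of genes of 1 pathway in the same libraries are not independent of each other. Each age comparison also shares a group of libraries with each genotype comparison. Values of the 2 genotypes, or the 2 ages, did not overlap for 3 members in dwarf against normal mice at 22 months (7.24% of all genes), 2 at 6 months (5.88%), 1 with age in dwarf mice (22.1%) and 0 with age in normal mice (2.39%).

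To set the members against each other, levels were divided by exon length. In mean CPM per kilobase of merged exons, the order in dwarf mice at 22 months was Smo at 58.1 ± 4.98, Ptch1 at 36.0 ± 6.30, Gli1 at 28.9 ± 4.49, Ihh at 11.2 ± 2.08, Gli2 at 9.39 ± 1.26, Dhh at 4.29 ± 1.03, Gli3 at 1.97 ± 0.386 and Hhip at 0.725 ± 0.229 (SD, n = 5). Ihh and Gli2 overlapped in their ranges there, as did Ptch1 and Gli1, while Smo stood above all other members. In dwarf mice at 6 months the order by the mean was the same but for its end, with Hhip at 1.46 ± 0.331 and Gli3 at 1.36 ± 0.243, which overlapped. Smo and Ptch1 also overlapped there, at 58.9 to 65.2 and 32.8 to 62.2 CPM per kilobase. So did Ptch1 with Gli1, Ihh with Gli2 and Gli2 with Dhh. In normal mice Smo and Ptch1 again led by the mean, at 43.0 ± 12.6 and 19.8 ± 10.9 CPM per kilobase at 22 months and 46.7 ± 12.7 and 28.4 ± 22.8 at 6 months. Ihh came next, at 17.4 ± 24.7 at 22 months and 27.2 ± 16.2 at 6 months, and then Gli1, at 10.9 ± 4.81 and 23.5 ± 8.16, though Ptch1, Ihh and Gli1 overlapped at both ages. Smo overlapped Ptch1 and Ihh at both ages in normal mice, and Gli1 at 6 months. Gli2 and Dhh overlapped in normal mice at 6 months, at 7.94 ± 2.10 and 8.29 ± 5.64 CPM per kilobase, but not at 22 months, at 6.20 ± 1.09 and 1.98 ± 0.952.

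Of the ligands, Dhh is the one known for paracrine signalling in both gonads. Dhh lies at chr15:98893027-98898540 on the minus strand (mm10, as all positions here). It had 8.26, 7.61, 12.3, 9.50 and 13.1 CPM in dwarf ovaries at 22 months, against 20.5, 19.5, 24.0, 23.5 and 28.3 CPM in dwarf ovaries at 6 months. In normal ovaries it had 4.49, 4.04, 1.41, 6.17 and 7.32 CPM at 22 months, against 25.2, 0.874, 11.7, 34.9 and 25.5 CPM at 6 months. Every dwarf library at 22 months lay below every dwarf library at 6 months, whereas the normal ages overlapped through 1 library, normal 6-month replicate 2, with 12 reads of Dhh. Dhh fell with age in normal mice, by 2.11 ± 0.56 on the log2 scale (SE, adjusted p = 0.0296), and its log2 change in dwarf mice was -1.28 ± 0.54 (adjusted p = 0.129). The difference between these changes was 0.84 ± 0.76 (adjusted p = 0.920).

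The call of Dhh in normal mice was held by 5 of the 10 fits that each left out 1 library of the comparison. It was lost without normal 22-month replicates 1, 2 or 3 (adjusted p = 0.0562, 0.0663 and 0.0858) and without normal 6-month replicates 1 or 4 (adjusted p = 0.0507 and 0.0751). It was also lost with only the groups compared, at -2.06 (adjusted p = 0.269), and without the libraries with title numbers 21 to 23, at -1.78 (adjusted p = 0.141). With the level of oviduct secretory markers as a covariate the log2 change was -0.42 (adjusted p = 0.796). Those markers differed with age themselves, their sum having a median of 2977 CPM at 22 months and 136 CPM at 6 months in normal mice. Age and oviduct tissue therefore cannot be told apart in that fit. Without the 3 libraries in doubt, Dhh averaged 5.50 ± 1.52 CPM in normal mice at 22 months (SD, n = 4) and 28.5 ± 5.54 CPM at 6 months (n = 3). In that fit Dhh changed by -2.33 on the log2 scale (adjusted p = 1.11e-05), and was also called lower with age in dwarf mice, at -1.24 (adjusted p = 0.000304). The libraries left out held the lowest Dhh of normal mice, 0.874 and 11.7 CPM at 6 months and 1.41 CPM at 22 months. Normal 6-month replicate 2 was in doubt partly for low granulosa markers, so that fit is not an independent check of the fall. Between genotypes at 22 months the groups did not overlap, the lowest dwarf value being 7.61 CPM and the highest normal value 7.32 CPM, with a log2 difference of 1.05 ± 0.55 (adjusted p = 0.327). At 6 months the difference was 0.21 ± 0.53 (adjusted p = 0.881).

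Markers of the cells that make and induce the ligands moved with age as well. Of the 14 granulosa markers 2 were called lower with age in dwarf mice and 3 in normal mice, Amh among them in both, at -3.02 ± 0.65 and -4.65 ± 0.71 on the log2 scale (adjusted p = 0.00780 and 0.00671). Of the 11 oocyte markers 9 were called lower with age in dwarf mice and 10 in normal mice. Summed oocyte markers ran from 56.1 to 89.1 CPM in dwarf ovaries at 22 months and 375 to 544 CPM at 6 months, and from 6.70 to 46.4 CPM in normal ovaries at 22 months and 5.75 to 468 CPM at 6 months. Summed granulosa markers ran from 1468 to 2991 CPM in dwarf ovaries at 22 months and 3149 to 5090 CPM at 6 months, and from 628 to 2266 CPM in normal ovaries at 22 months and 287 to 6362 CPM at 6 months. The part of these cells in the fall of Dhh was not tested. Over all 20 libraries Gdf9, the oocyte growth factor, was the gene second most like Dhh in log2 CPM, with a Pearson r of 0.95, behind St3gal5 (0.95), and C430049B03Rik (0.95), Eif4e1b (0.95) and Obsl1 (0.94) followed. Those r are over libraries that differ in genotype and age, and describe a shared pattern over them.

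Ihh, the other granulosa ligand, at chr1:74945318-74951651 on the minus strand, did not pass the test in any comparison. It had 21.3, 25.3, 35.2, 26.9 and 27.97 CPM in dwarf ovaries at 22 months and 37.6, 29.2, 55.2, 38.2 and 33.7 CPM at 6 months. Normal ovaries had 5.67, 4.72, 149, 32.0 and 21.8 CPM at 22 months and 38.1, 68.4, 65.2, 131 and 29.8 CPM at 6 months. The dwarf groups were narrow and the normal groups wide, and 1 normal library at 22 months, replicate 3, held 149 CPM against at most 32.0 CPM in the other 4. With that library the log2 difference of dwarf from normal at 22 months was -0.77 ± 0.67 (adjusted p = 0.624), and without it 0.76. Without that library alone Ihh was also called lower with age in normal mice, at -2.10 on the log2 scale (adjusted p = 0.0346), against -0.63 ± 0.67 with it (adjusted p = 0.602). The genes most like Ihh over the 20 libraries were Gga2 (r 0.75), Ttbk1 (0.72), Eef1e1 (0.72), Noc3l (0.70) and Cct8 (0.70).

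Ptch1, at chr13:63511533-63565520 on the minus strand, is the receptor that keeps Smo inactive until ligand binds, and a target of the pathway. It had 166, 148, 174, 176 and 111 CPM in dwarf ovaries at 22 months and 268, 141, 179.5, 249 and 167 CPM at 6 months. In normal ovaries it had 59.3, 52.0, 167, 69.8 and 77.5 CPM at 22 months and 128, 29.0, 21.2, 186 and 247 CPM at 6 months. At 22 months 4 of the 5 normal libraries lay below every dwarf library, and replicate 3 alone lay among them. The log2 difference of dwarf from normal was 0.76 ± 0.48 at 22 months (adjusted p = 0.455) and 0.71 ± 0.48 at 6 months (adjusted p = 0.471). Without the 3 libraries in doubt, which include the 2 lowest values at 6 months and the highest at 22 months, Ptch1 was called higher in dwarf mice at 22 months, at 1.21 (adjusted p = 0.00253), and lower with age in normal mice, at -1.48 (adjusted p = 0.000500). The genes most like Ptch1 over the 20 libraries were Dock4 (r 0.96), Simc1 (0.93), Zzz3 (0.92), Fam117b (0.92) and Hdac4 (0.92).

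Hhip, at chr8:79965851-80058008 on the minus strand, binds all Hedgehog ligands at the cell surface and takes them away from Ptch1. It was the lowest member per length in every group but dwarf mice at 6 months, with 6.66, 3.66, 7.06, 6.09 and 9.45 CPM in dwarf ovaries at 22 months and 15.5, 7.95, 14.4, 14.1 and 14.3 CPM at 6 months. Normal ovaries had 0.839, 0.172, 6.84, 2.70 and 1.45 CPM at 22 months and 6.16, 1.24, 5.13, 11.5 and 12.4 CPM at 6 months. As with Ptch1, 4 normal libraries at 22 months lay below every dwarf library and replicate 3 did not. These levels rest on few reads, with 2 to 116 reads a library in normal mice at 22 months. The log2 difference of dwarf from normal at 22 months was 1.33 ± 0.64 (adjusted p = 0.283), and 2.41 without that 1 library (adjusted p = 0.0359). With age the log2 change was -1.10 ± 0.62 in dwarf mice (adjusted p = 0.252) and -1.61 ± 0.65 in normal mice (adjusted p = 0.140), and -2.62 in normal mice without that library (adjusted p = 0.0308).

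Smo, the membrane protein that passes the signal inward, lies at chr6:29735497-29761366 on the plus strand and was not called in any comparison. It averaged 231 ± 19.8 CPM in dwarf ovaries at 22 months, 248 ± 9.32 CPM in dwarf ovaries at 6 months, 171 ± 50.3 CPM in normal ovaries at 22 months and 186 ± 50.3 CPM in normal ovaries at 6 months (SD, n = 5 each). At 6 months the dwarf libraries, at 234 to 259 CPM, all lay above the normal ones, at 101 to 225 CPM. The log2 difference was 0.39 ± 0.17 at 6 months (adjusted p = 0.210) and 0.35 ± 0.17 at 22 months (adjusted p = 0.276). Its change with age was -0.18 ± 0.17 in dwarf mice (adjusted p = 0.491) and -0.14 ± 0.17 in normal mice (adjusted p = 0.643).

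Gli1 is made mainly where the pathway is active and is a strong activator of transcription. It had 102, 92.6, 99.3, 100.4 and 134 CPM in dwarf ovaries at 22 months, against 25.7, 20.9, 53.4, 62.1 and 37.4 CPM in normal ovaries of that age. At 6 months it had 142, 153, 136, 126 and 159.6 CPM in dwarf ovaries, against 92.5, 37.1, 109, 81.0 and 110.2 CPM in normal ovaries. The genotypes did not overlap at either age. At 22 months Gli1 was higher in dwarf mice by 1.33 ± 0.29 on the log2 scale (adjusted p = 0.0149), and at 6 months the difference was 0.69 ± 0.29 (adjusted p = 0.193). The call at 22 months held in all 10 fits that left out 1 library, at 1.19 to 1.53 on the log2 scale with adjusted p from 0.00945 to 0.0383, and in all 14 other fits that were run.

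With age Gli1 fell in normal mice by 1.16 ± 0.29 on the log2 scale (adjusted p = 0.0234), and its log2 change in dwarf mice was -0.52 ± 0.28 (adjusted p = 0.236). The normal ages overlapped through normal 6-month replicate 2, at 37.1 CPM, and the dwarf ages through dwarf 22-month replicate 5, at 134 CPM. The difference between the 2 age changes was 0.64 ± 0.40 (adjusted p = 0.848), so a difference in the age response was not shown. No gene of the 16099 was called for that difference by edgeR (0.00%), although 1127 had an unadjusted p under 0.05 (7.00%), DESeq2 called 17 and limma voom 9, and edgeR without the 3 libraries in doubt called 202, with 0 members among them. The fall in normal mice was called in 7 of 10 fits that left out 1 library, and was lost without normal 22-month replicate 1 or 2 or normal 6-month replicate 3 (adjusted p = 0.0538, 0.0555 and 0.0563). It was also lost with only the groups compared, at -1.13 (adjusted p = 0.245), and without title numbers 21 to 23, at -1.23 (adjusted p = 0.0639). It was -1.35 without the 3 libraries in doubt (adjusted p = 0.00113), and -0.71 with the level of oviduct secretory markers as a covariate (adjusted p = 0.327). As for Dhh, that covariate differs with age, so the 2 cannot be told apart there.

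**Figure D2:**
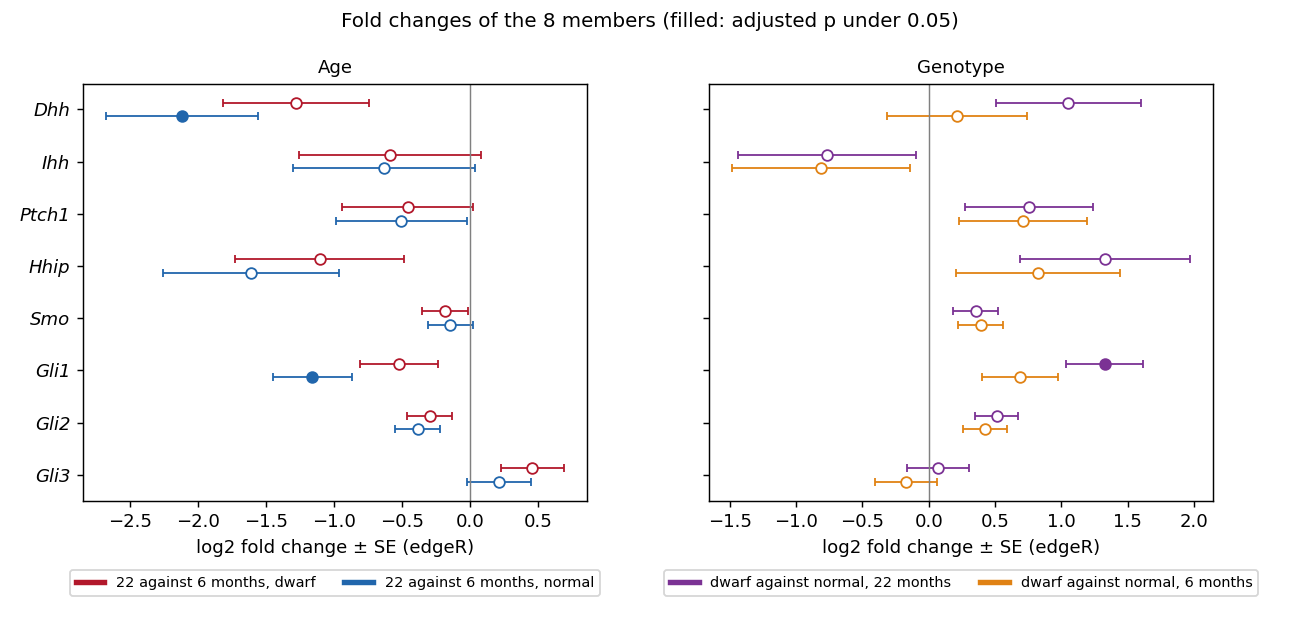
Fitted log2 fold changes of the 8 members with their standard errors, with age on the left (22 against 6 months, dwarf above normal) and genotype on the right (dwarf against normal, 22 above 6 months); filled points passed an adjusted p of 0.05. The 3 filled points are Gli1 in dwarf against normal mice at 22 months, at 1.33, and Gli1 and Dhh with age in normal mice, at -1.16 and -2.11.

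The last 62 bases of Gli1, which runs on the minus strand at chr10:127329882-127341579 in mm10, are also exon of Arhgap9 on the plus strand, and make up 1.69% of Gli1's exon length and 3.42% of Arhgap9's. The strand setting of the counting is not given in the sources used here, so reads of the 2 genes in those bases cannot be told apart. Arhgap9 had 3.20, 6.82, 4.39, 5.47 and 5.93 CPM in dwarf ovaries at 22 months, against 8.24, 3.95, 15.0, 15.4 and 9.74 CPM in normal ovaries of that age. It had 3.10 to 7.36 CPM in dwarf ovaries at 6 months and 1.97 to 3.98 CPM in normal ovaries at 6 months. Arhgap9 ran the other way from Gli1 with age in normal mice, at a log2 change of 1.79 ± 0.35 (adjusted p = 0.00977). It also did so between genotypes at 22 months, with a log2 difference of dwarf from normal of -1.10 ± 0.34 (adjusted p = 0.0762). With age in dwarf mice its log2 change was 0.09 ± 0.33 (adjusted p = 0.882), against -0.52 for Gli1. At 6 months its log2 difference of dwarf from normal was 0.60 ± 0.35 (adjusted p = 0.384), the same direction as Gli1. With the counts of both genes summed, dwarf exceeded normal at 22 months by 1.06 on the log2 scale (adjusted p = 0.0410), and the change with age in normal mice was -0.87 (adjusted p = 0.0703). Markers of macrophages moved with Arhgap9, their sum being 430 to 664 CPM in dwarf ovaries at 22 months and 704 to 2273 CPM in normal ovaries of that age, and their part in these values was not tested.

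**Figure D3:**
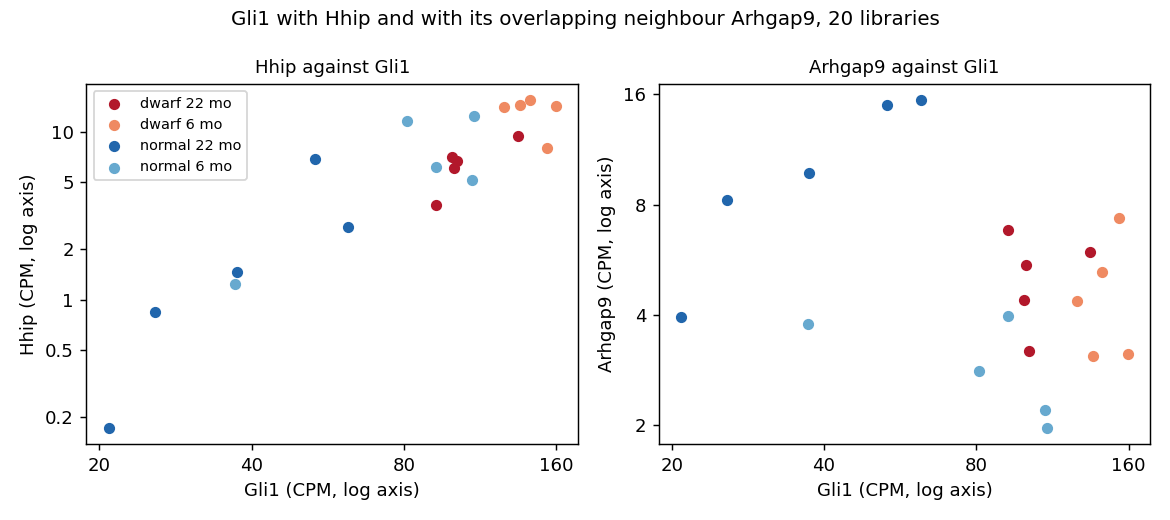
Hhip (left) and Arhgap9 (right) against Gli1, CPM on log axes, 1 point per library, coloured by group. Hhip is high where Gli1 is high, from 0.172 CPM of Hhip at 20.9 CPM of Gli1 to 14.3 CPM at 159.6 CPM, while the highest Arhgap9 values, 15.0 and 15.4 CPM, belong to normal libraries at 22 months with 53.4 and 62.1 CPM of Gli1.

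Gli2 (chr1:118834061-119053619, minus strand), the main activator at the start of the response, had 60.2, 64.2, 50.8, 65.6 and 74.1 CPM in dwarf ovaries at 22 months, against 48.2, 31.4, 38.4, 40.7 and 49.2 CPM in normal ovaries of that age. The groups did not overlap, by a margin of 1 library against 1 (50.8 and 49.2 CPM), and the log2 difference was 0.51 ± 0.16 (adjusted p = 0.0900). At 6 months Gli2 averaged 72.9 ± 12.6 CPM in dwarf and 53.3 ± 14.1 CPM in normal ovaries (SD, n = 5 each), a log2 difference of 0.42 ± 0.16 (adjusted p = 0.160). Gli3 (chr13:15463723-15730025, plus strand), which serves mostly as the repressor, was the 1 member with a positive change with age in both genotypes. It had 19.3, 17.3, 12.6, 20.0 and 13.9 CPM in dwarf ovaries at 22 months, against 11.7, 10.4, 11.5, 14.6 and 9.01 CPM at 6 months, and these overlapped. Its log2 change was 0.46 ± 0.23 in dwarf mice (adjusted p = 0.201) and 0.21 ± 0.23 in normal mice (adjusted p = 0.613). Without the 3 libraries in doubt Gli3 was called in dwarf mice, at 0.50 (adjusted p = 0.0433), and its change in normal mice turned to -0.12.

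Promoters are shown for the ligand called with age and for 2 targets of the pathway besides Gli1. RefSeq promoters of GRCm38.p6, the mm10 build, running from 250 bases before to 50 bases after the start of each gene, were matched for 7 of the 8 members, Gli1 being the other. They were searched on both strands for the Gli consensus GACCACCCA and for CCACCC, a hexamer within it. The consensus was found in 0 of the 7 promoters and in 83 of all 32851 promoters (0.253%). The hexamer was found in 6 of the 7, in Ptch1's alone not, and in 31.5% of all promoters. In the sequences below, 5′ to 3′ on the strand of the gene, capitals mark the hexamer or its reverse complement GGGTGG. That of Dhh is at chr15:98898491-98898790 on the minus strand, with GGGTGG starting 88 bases before the start of the gene, and that of Hhip at chr8:80057959-80058258 on the minus strand, with CCACCC 158 bases before it. That of Ptch1 is at chr13:63565686-63565985 on the minus strand, and its RefSeq start lies 215 bases upstream of the start in the deposited annotation.
Dhh: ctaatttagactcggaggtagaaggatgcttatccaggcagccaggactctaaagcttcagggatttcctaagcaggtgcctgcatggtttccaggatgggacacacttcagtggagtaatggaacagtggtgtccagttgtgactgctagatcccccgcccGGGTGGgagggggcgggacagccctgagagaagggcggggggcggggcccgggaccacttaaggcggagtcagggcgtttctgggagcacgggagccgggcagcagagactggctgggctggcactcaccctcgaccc
Hhip: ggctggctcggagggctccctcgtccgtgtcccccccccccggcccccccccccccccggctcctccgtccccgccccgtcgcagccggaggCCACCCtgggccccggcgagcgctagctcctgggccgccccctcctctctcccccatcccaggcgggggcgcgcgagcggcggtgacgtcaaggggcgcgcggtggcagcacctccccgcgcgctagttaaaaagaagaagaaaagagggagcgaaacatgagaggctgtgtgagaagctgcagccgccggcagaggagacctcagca
Ptch1: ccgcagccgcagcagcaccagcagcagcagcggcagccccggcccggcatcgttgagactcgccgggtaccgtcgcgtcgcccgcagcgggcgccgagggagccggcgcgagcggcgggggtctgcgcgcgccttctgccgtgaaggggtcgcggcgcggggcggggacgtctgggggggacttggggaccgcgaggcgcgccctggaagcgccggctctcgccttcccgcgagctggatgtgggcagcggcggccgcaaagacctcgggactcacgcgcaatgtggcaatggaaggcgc
A match or its absence describes these letters in this window only.

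The rest of the pathway was followed in 47 other genes, of which 46 had enough reads to test. With age, 2 were called higher and 1 lower in dwarf mice (2.92% and 8.27% over all tested genes), and 1 higher and 2 lower in normal mice (2.60% and 4.14%). Between genotypes, 5 were called higher in dwarf mice and 0 lower at 22 months (1.96% and 1.86% over all genes), and 3 higher and 2 lower at 6 months (2.27% and 2.30%). The median log2 difference of dwarf from normal over the 46 genes was 0.08 at 22 months and 0.09 at 6 months, against -0.04 over all tested genes at each age. None of the 22 genes for signal transduction inside the cell, such as Sufu, the inhibitor that binds Gli proteins, was called in any of these comparisons by edgeR (0). At an unadjusted p under 0.05, 7 of the 22 passed with age in dwarf mice, where 28.1% of all genes did, and 1 or 2 in each other comparison.

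Among the coreceptors, Boc was called between genotypes at both ages and Cdon at 22 months. Gas1, another coreceptor, was not called between genotypes at either age. At 22 months it had 63.9 to 180 CPM in dwarf and 70.4 to 148 CPM in normal ovaries. Boc and Cdon are related membrane proteins that bind ligand together with Ptch1 and strengthen the response. Boc had 203, 148, 182, 213 and 242 CPM in dwarf ovaries at 22 months, against 92.6, 69.3, 58.5, 108 and 90.6 CPM in normal ovaries of that age. At 6 months it had 158, 179.9, 177, 158 and 185 CPM in dwarf ovaries, against 87.6, 81.1, 47.6, 78.5 and 61.6 CPM in normal ovaries. The genotypes did not overlap at either age, and Boc was higher in dwarf mice by 1.16 ± 0.16 at 22 months (adjusted p = 0.000447) and 1.24 ± 0.16 at 6 months on the log2 scale (adjusted p = 0.000237). Both calls held in every fit run, with 1 library left out (10 fits) or another setting (13 fits). With age the log2 change of Boc was 0.12 ± 0.15 in dwarf mice (adjusted p = 0.623) and 0.20 ± 0.15 in normal mice (adjusted p = 0.457).

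Cdon had 197, 172, 165, 199 and 144 CPM in dwarf ovaries at 22 months, against 66.0, 79.3, 88.9, 62.9 and 76.2 CPM in normal ovaries of that age. All dwarf values lay above all normal ones, and the log2 difference was 1.13 ± 0.24 (adjusted p = 0.0124). In dwarf ovaries Cdon also rose with age, with 93.6, 105, 60.3, 98.2 and 59.3 CPM at 6 months, by 1.00 ± 0.24 (adjusted p = 0.0126). In normal mice its log2 change with age was 0.70 ± 0.24 (adjusted p = 0.0865), and the difference between the age changes was 0.30 ± 0.34 (adjusted p = 0.952).

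Other membrane and release proteins were called as well. Gpc3, a glypican that in mice competes with Ptch1 for ligand, was higher in dwarf mice by 1.24 ± 0.18 at 22 months (adjusted p = 0.000843), with 80.6 to 152 CPM against 38.9 to 59.4 CPM in normal ovaries. At 6 months the difference was 0.64 ± 0.18 (adjusted p = 0.0497), and 7 of 10 fits with 1 library left out lost it. Scube1 and Scube2 are secreted proteins, and Scube2 is known to release lipid-bearing ligand from cells. Scube1 had 10.9, 2.83, 8.90, 17.0 and 17.9 CPM in normal ovaries at 22 months, against 32.2, 33.9, 43.9, 38.9 and 50.0 CPM at 6 months. It fell with age in normal mice by 1.85 ± 0.35 on the log2 scale (adjusted p = 0.00816), while in dwarf mice the change was -0.15 ± 0.33 (adjusted p = 0.790), and the difference between these changes was 1.70 ± 0.48 (adjusted p = 0.594). At 6 months Scube1 and Scube2 were lower in dwarf than in normal ovaries, by log2 differences of -1.25 ± 0.34 (adjusted p = 0.0413) and -1.35 ± 0.32 (adjusted p = 0.0190), and these calls were lost in 6 and 2 of 10 fits with 1 library left out.

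**Figure D4:**
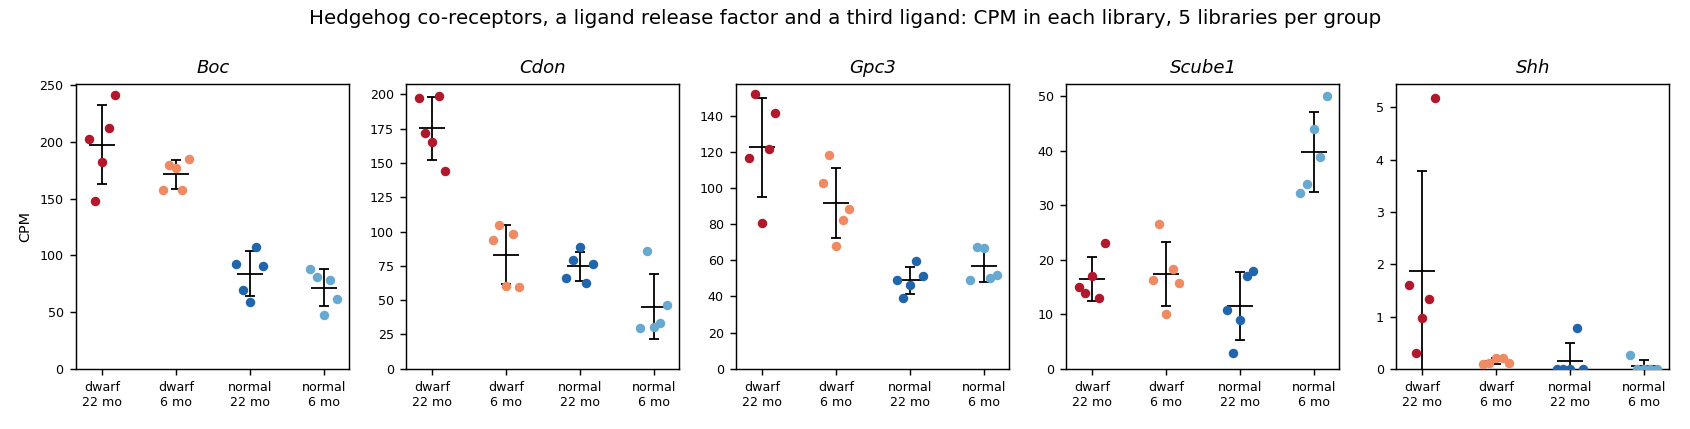
CPM of other pathway genes in each of the 20 libraries (points), with group means and SD (bars, cut at 0 on the axis). Boc lies at 148 to 242 CPM in the dwarf groups and at 47.6 to 108 CPM in the normal groups; Shh reaches 5.19 CPM in 1 dwarf library at 22 months and is at 0 in 8 of the 10 normal libraries.

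Shh, the ligand of most other organs, was near the limit of detection. The 5 dwarf libraries at 22 months held 71 reads in all and the 5 at 6 months 15 reads, against 4 reads in 1 of 5 normal libraries at 22 months and 2 reads in 1 of 5 at 6 months. The 8 normal libraries with 0 reads allow levels of up to 0.134 to 2.20 CPM, depending on depth (3 reads of the total, counting error only). Shh was called higher in dwarf mice at 22 than at 6 months, at a log2 change of 3.53 ± 0.95 (adjusted p = 0.0229), and higher in dwarf than in normal mice at 22 months, at 4.38 ± 1.12 (adjusted p = 0.0339). The first call was lost in 4 of 10 and the second in 8 of 10 fits with 1 library left out, and with most normal libraries at 0 the size of the second is not well set. Markers of oviduct secretory cells, an epithelium that lies against the ovary, summed to 2061 to 3813 CPM in dwarf ovaries at 22 months and 60.0 to 1637 CPM at 6 months. In normal ovaries they summed to 2082 to 4064 CPM at 22 months and 61.0 to 6718 CPM at 6 months, where Shh was at 0 in most libraries, the one with 6718 CPM included. Their part in the level of Shh was not tested.

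Genes known as Hedgehog targets in other tissues gave few calls. Mycn, which Gli factors raise in cerebellar granule precursors, fell with age in both genotypes, by 1.07 ± 0.23 in dwarf mice (adjusted p = 0.00798) and by 1.24 ± 0.24 in normal mice on the log2 scale (adjusted p = 0.00863). It averaged 29.0 ± 7.70 CPM in dwarf ovaries at 22 months and 57.5 ± 8.02 CPM at 6 months, and 17.9 ± 5.87 CPM in normal ovaries at 22 months and 41.7 ± 13.8 CPM at 6 months (SD, n = 5 each). Sfrp1, a secreted Wnt inhibitor, was higher in dwarf mice by 1.00 ± 0.24 at 22 months (adjusted p = 0.0229) and 0.87 ± 0.24 at 6 months (adjusted p = 0.0435), the second lost in 6 of 10 fits with 1 library left out. Lrp2, a large endocytic receptor of epithelia that can take up ligand, was listed with the membrane proteins and not with these targets. It was called higher with age in normal mice at 4.02 ± 1.16 (adjusted p = 0.0441). That call rested on normal 22-month replicates 2 and 3 at 656 and 583 CPM and was lost in 6 of 10 fits with 1 library left out.

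Markers of the endocrine theca were called in both directions. Of the 9 markers at 22 months, 1 was called higher and 2 lower in dwarf than in normal ovaries, and at 6 months 1 higher and 3 lower. The higher one was Insl3, a peptide hormone of theca cells, at 4.52 ± 0.71 on the log2 scale at 22 months (adjusted p = 0.00129) and 6.68 ± 0.79 at 6 months (adjusted p = 0.000237). Those lower included Cyp11a1, the first enzyme of steroid synthesis, at -3.46 ± 0.81 at 22 months and -3.95 ± 0.83 at 6 months (adjusted p = 0.0225 and 0.00970), and its electron carrier Fdx1, at -2.07 ± 0.56 and -3.50 ± 0.59 (adjusted p = 0.0459 and 0.00242), all genes that the corpus luteum also expresses. The 8 luteal markers, which share Cyp11a1, Star, Hsd3b1 and Lhcgr with the theca list, summed to 1647 to 4429 CPM in dwarf ovaries at 22 months and 2624 to 11668 CPM in normal ovaries of that age. At 6 months they summed to 1944 to 3588 CPM in dwarf and 225 to 14356 CPM in normal ovaries. The stroma list had 2 of 10 genes called higher in dwarf mice at 22 months, Ogn at 1.42 ± 0.28 (adjusted p = 0.00870) and Dcn at 1.01 ± 0.25 (adjusted p = 0.0306), and 0 higher and 1 lower at 6 months. Smooth muscle markers gave 0 calls of 11 in any comparison by edgeR, with 4 at an unadjusted p under 0.05 between genotypes at 6 months and 1 at 22 months. Between genotypes at 22 months 13 of 14 granulosa and 11 of 11 oocyte markers had a positive log2 difference of dwarf from normal, with medians of 0.75 and 1.85 against -0.04 over all tested genes. Of these Amh was called, at 2.78 ± 0.66 (adjusted p = 0.0239). Summed oocyte markers were 56.1 to 89.1 CPM in dwarf and 6.70 to 46.4 CPM in normal ovaries of that age. The part of luteal, stromal, granulosa and oocyte numbers in the difference of Gli1 was not tested.

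Pooled over the groups as deviations from group means, Gli1 and Hhip were correlated by Pearson's r but not, after adjustment, by rank. After each group's mean was subtracted from log2 CPM, their Pearson r over 20 libraries was 0.83 (permutation p = 0.00229, adjusted p = 0.0321 over the 28 pairs of members) and Spearman's rho was 0.66 (permutation p = 0.0104, adjusted p = 0.173). Ptch1 with Gli3 gave r 0.78 (permutation p = 0.00227, adjusted p = 0.0321) and rho 0.67 (permutation p = 0.0124, adjusted p = 0.173), and Ptch1 with Hhip r 0.66 (permutation p = 0.00427, adjusted p = 0.0399) and rho 0.57 (permutation p = 0.0276, adjusted p = 0.242). Of 28 pairs these 3 passed by Pearson's r and 0 by rho, from two-sided tests with 100000 permutations of libraries within groups. These r are pooled, and the groups differed. For Gli1 with Hhip, r was 0.06 in dwarf mice at 6 months and 0.80 to 0.92 in the other groups. For Ptch1 with Hhip, r was -0.40 in dwarf mice at 22 months and 0.75 to 0.86 in the other groups. Ptch1 with Gli3 was positive in every group, at 0.32 to 0.93. With 5 libraries a group, these single-group r are loosely set and were not tested. Ptch1 with Gli1, both targets of the pathway, did not pass, at r 0.31 (permutation p = 0.429, adjusted p = 0.600). Its rho was 0.12 (permutation p = 0.664, adjusted p = 0.885). Without the 2 libraries farthest from the median of Hhip, r was 0.73 for Gli1 with Hhip. Without the 2 farthest from the median of Ptch1, r was 0.59 for Ptch1 with Gli3 and 0.71 for Ptch1 with Hhip. Without the 3 libraries in doubt, 0 of 28 pairs passed, and Gli1 with Hhip had r 0.78 over 17 libraries (adjusted p = 0.170), Ptch1 with Gli3 0.47 (adjusted p = 0.395) and Ptch1 with Hhip 0.44 (adjusted p = 0.230). Over the 20 libraries with groups left in, Ntng1 (0.92), Hhip (0.92), Mef2c (0.92), Spin2 (0.90) and Rgs2 (0.90) were the genes most like Gli1. Bcl11a (0.93), Mef2c (0.92), Gli1 (0.92), Cacna1s (0.91) and Ntng1 (0.89) were those most like Hhip.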

How the data were processed

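Per the labels' protocols, frozen ovaries were extracted with Trizol and polyadenylated RNA was sequenced on Illumina libraries. The deposited values are whole-number read counts for each gene in a library, which the authors made with TopHat2 2.0.10, Bowtie2 and HTSeq on mm10 among other tools, per the submitters' processing notes. Which tool did what, and the strand setting, is not given in the sources used here. Summary rows (9.84 to 17.6% of counts) were left out of library totals and tests.

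From the counts, CPM of the library total was computed per gene. Coordinates and exon lengths come from the deposited gene annotation, given in mm10. Tests used edgeR 4.0.16 in R 4.3.3 (limma 3.58.1, DESeq2 1.42.0 as alternatives), with filterByExpr (minimum count 10, minimum total 15), TMM scaling and a model of 4 group means over all 20 libraries. Standard errors were derived as the size of the log2 fold change over the root of F. The step was tested on simulated data.

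The members and lists were chosen with earlier results of these data known. The rule for named genes takes the members, genes that overlap them, called genes of the pathway lists with Shh and Sufu, up to 3 called genes of each marker list, and the 5 genes most like Gli1, Ptch1, Hhip, Dhh and Ihh. Alternatives were other scalings, filters and tools, a block for the replicate number, fits of the compared groups only, single libraries or 3 libraries left out, an oviduct score as a covariate, a stricter threshold, and Gli1 summed with Arhgap9. Summing dwarf 22-month replicates 1 and 4 as 1 library was chosen after seeing the data. The 3 libraries in doubt were picked by marker levels and read totals in these same data. Not every gene under this rule is reported here. Reads were not used here. The floors given for Shh cover counting error only. Each SD is the spread between libraries, and each SE comes from the fit, which includes that spread.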

Additional observations from a re-analysis of the deposited data

Results flagged for a closer look

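In 10 of 72 groups of 5 libraries tested over 18 genes, 1 library stood apart from the other 4 by Dixon's test. Chance gives about 1 in 20 for independent groups of normally distributed values. These groups share libraries, and some genes were taken because they were called. For Shh only 1 library of each normal group held any reads, which passes by construction. The count is therefore not a comparison with chance. Normal 22-month replicate 3 held 148.5 CPM of Ihh, against 4.72 to 32.0 CPM in the others, and 167.3 CPM of Ptch1, against 52.0 to 77.5 CPM. That library is 1 of the 3 in doubt, and normal 6-month replicate 3, another of them, held 101.1 CPM of Smo against 189.6 to 225 CPM. Normal 6-month replicate 2, the third, held 70.1 CPM of Lrp2 against 0.732 to 4.31 CPM.

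Among dwarf libraries, replicate 5 at 22 months was highest for both Gli1, at 134.5 CPM against 92.6 to 102 CPM, and Shh, at 5.19 CPM against 0.296 to 1.60 CPM. Replicate 2 at 22 months held 42.2 CPM of Mycn against 23.3 to 28.8 CPM, and replicate 2 at 6 months held 7.95 CPM of Hhip against 14.1 to 15.5 CPM. Shh was found in 1 normal library of each age, at 0.771 CPM in replicate 4 at 22 months and 0.257 CPM in replicate 1 at 6 months, and at 0 in the others.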

How the results depend on the processing

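The normal groups hold the 3 libraries in doubt, and cell numbers were not measured. At an adjusted p under 0.05, calls over all genes ranged across fits from 802 to 7519 with age in dwarf mice, 0 to 4848 with age in normal mice, 262 to 2291 between genotypes at 22 months and 244 to 1991 at 6 months. The count of members called with age in normal mice, 2 as reported, was 0 at an adjusted p under 0.01 (0.696% of all genes), 0 with only the groups compared (0.00%), 0 with the oviduct score as a covariate (0.0559%), 1 (Ihh) without the libraries with title numbers 21 to 23 (1.17%), 4 with limma voom (24.0%), 6 without the 3 libraries in doubt (29.6%) and 0 to 3 with 1 library left out. With age in dwarf mice it was 5 with limma voom (46.7%), 5 (Dhh, Ihh, Hhip, Gli1 and Gli3) with only the groups compared (33.5%), 3 without the 3 libraries (28.7%) and 0 with any 1 library left out, against 0 as reported. Between genotypes at 6 months it was 1 (Gli1) with limma voom (11.6%) and 1 (Gli2) with the covariate (8.29%), against 0. At 22 months, against 1, it was 0 at an adjusted p under 0.01 (0.957%), 2 (Gli1 and Gli2) with DESeq2 (7.51%), 2 with the covariate (6.27%), 4 with limma voom (14.2%), 5 without the 3 libraries (10.8%) and 1 to 2 with 1 library left out. It was 0 for the difference of the age changes in all 32 fits. RLE and upper quartile scaling, either low-count filter, non-robust estimates and the sum of dwarf replicates 1 and 4 kept the direction and side of the threshold of all 33 member results. The cause of the other changes was not tested. The oviduct score differs with age, so age and oviduct tissue cannot be told apart in fits with it.

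Directions turned for members that were not called as reported. With age, Ptch1 was 0.14 in dwarf mice and 0.70 in normal mice under the covariate (log2), Smo in normal mice ran from -0.24 to 0.021 with 1 library left out, and Gli3 in normal mice was -0.038 with limma voom and -0.12 without the 3 libraries. Between genotypes at 6 months, Dhh was -0.15 with limma voom, -0.26 without the 3 libraries and -0.076 to 0.46 with 1 library left out. At 22 months, Ihh was 0.68 with limma voom, 0.77 without title numbers 21 to 23, 0.77 without the 3 libraries and -1.03 to 0.76 with 1 library left out.

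No label says that the replicate numbers shared by the groups mark a pairing, and the samples were treated as unpaired. Same-numbered libraries correlated at -0.22 to 0.72 in their deviations from group means, and 10 of 30 such pairs were over 0.1. Their mean r was highest between dwarf and normal mice at 6 months, at 0.19 against -0.05 for other-numbered libraries. It was lowest between dwarf mice at 6 months and normal mice at 22 months, at -0.06 against 0.01. These values do not settle whether the numbers pair samples. With the replicate number as a block, 3 members (Dhh, Hhip and Gli1) were called with age in normal mice, 0 with age in dwarf mice, 1 between genotypes at 22 months and 0 at 6 months, and 0 for the difference of the age changes.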
